A study of Mus musculus with 6 samples.

Results

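Subunits of phosphoinositide 3-kinase (PI3K) and the proteins that activate or restrain it were examined in cultured CD8+ effector T cells (Teff) with and without Scd1, the gene of stearoyl-CoA desaturase. The set comprised 9 genes chosen by symbol: Pik3r5, Pik3r6, Pik3cg, Pik3cd, Pik3r1, Pik3ap1, Pik3ip1, Inpp5d and Inpp4b. All 9 were found, each as a single row, among the 34745 genes of the series. RNA-seq had been performed on 3 WT and 3 Scd-1-/- libraries. Cells of the WT group came from C57BL/6J mice, and those of the Scd-1-/- group from B6.129-Scd1tm1Ntam/J mice, which lack Scd1 in every tissue. The mice were males aged 6 to 8 weeks. The WT mice were purchased and the Scd-1-/- mice donated, so the groups were not littermates, and loss of Scd1 cannot be told apart from the source of the mice or from donor-strain DNA carried along with the mutated Scd1 allele. Splenic CD8+ T cells of both groups were stimulated for 3 days with anti-CD3 (5 µg/mL), anti-CD28 (0.5 µg/mL) and IL-2 (100 U/mL), left in IL-2 for 3 further days and harvested on day 6. Neither the labels nor the methods say whether a library came from 1 mouse or from several, so p-values measure the spread between these libraries.

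Class I PI3K phosphorylates a membrane lipid to give PIP3, which recruits AKT and other kinases to the membrane of an activated T cell. Class IA enzymes pair a catalytic subunit such as p110δ, encoded by Pik3cd, with a regulatory subunit such as p85α, encoded by Pik3r1, and act below the T cell receptor, CD28 and cytokine receptors. The class IB enzyme pairs p110γ, encoded by Pik3cg, with either p101 (Pik3r5) or p84 (Pik3r6), and acts mainly below G protein-coupled receptors such as those for chemokines. Pik3ap1 encodes BCAP, an adaptor that recruits PI3K, whereas Pik3ip1 encodes a transmembrane inhibitor of it. Inpp5d encodes SHIP1, which removes the 5-phosphate of PIP3, and Inpp4b encodes a phosphatase that acts on PI(3,4)P2, the product of SHIP1.

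The libraries held 14034479 to 15866216 counts, and the libraries of each genotype differed from each other by more than sampling noise. Counts of Scd1 were 4272, 3074 and 3761 in WT and 30, 36 and 20 in Scd-1-/- libraries, so the labels matched the target gene. The first principal component of all genes tested, 42.9% of the variance, set both libraries of replicate 1 apart from the other 4, and the second, 36.3%, followed genotype. Summed CPM (counts per library total, scaled alike in all libraries) of the CD8 T cell markers were 2287 to 2701 in WT and 2039 to 2423 in Scd-1-/- libraries. Among them Cd8a was lower in each Scd-1-/- library, at 43.1, 47.6 and 47.1 FPKM in WT and 36.6, 27.9 and 33.7 FPKM in Scd-1-/- libraries (log2 fold change -0.46, adjusted p = 0.297 without and 0.063 with the block). The B cell markers summed to 19.9 to 22.9 CPM in WT and 6.59 to 16.8 CPM in Scd-1-/- libraries, nearly all of it Cd79b (342, 278 and 307 counts in WT and 259, 93 and 123 in Scd-1-/- libraries, adjusted p = 0.387 without and 0.0434 with the block), with Ms4a1 and Pax5 at 0 counts in all 6. The myeloid markers summed to 17.4 to 39.0 and 22.4 to 63.3 CPM, most of it Cd68, with Adgre1 and Fcgr1 at 0 in all 6. Among the myeloid markers Cd14 was low but differed with genotype, at 11, 5 and 4 counts in WT and 28, 42 and 40 in Scd-1-/- libraries (log2 fold change 2.41, unadjusted p = 0.000837 and adjusted p = 0.0956 in edgeR with no FPKM minimum). The natural killer markers summed to 2.44 to 4.92 and 8.29 to 45.7 CPM, most of it Klrb1c, while Ncr1 had at most 5 counts and Klra8 and Klra4 at most 2 in any library. The summed CD4 T cell markers reached 2.35 CPM in WT and 0.578 CPM in Scd-1-/- libraries, with Cd4 itself at 8, 24 and 12 against 5, 2 and 1 counts, the platelet markers at most 1.39 CPM and the erythroid markers at most 0.257 CPM in any library. In bulk RNA, fewer cells of a type cannot be told apart from less RNA per cell.

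Genotypes were compared with edgeR's quasi-likelihood test over 9627 genes with a mean FPKM (counts divided by gene length and by the total of the library) of at least 1. The study had asked for an unadjusted p under 0.001 together with a log2 fold change of size 1 or more, and 0.738% of all genes tested passed these thresholds. A Benjamini-Hochberg adjusted p under 0.05, used beside them, was reached by 0.114% of the genes. With the replicate number as a block, these shares were 1.91% and 4.7%. Of the 9 genes, 0 passed either threshold in the unblocked edgeR fit, and 2, Pik3r6 and Pik3r1, had an unadjusted p under 0.05, against 10.1% of all genes. With the block, 1 gene (Pik3r6) was past the thresholds of the study and 2 (Pik3r6 and Pik3r1) had an adjusted p under 0.05. Both were higher in Scd-1-/- cells, as were 2.64% of all genes at that adjusted p. All 9 passed the FPKM minimum, Pik3r6 only through its level in the Scd-1-/- group. DESeq2, without the block, placed 1 of the 9 (Pik3r6) past either threshold, against 1.67% of all genes past those of the study and 2.76% at an adjusted p under 0.05.

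**Figure D1:**
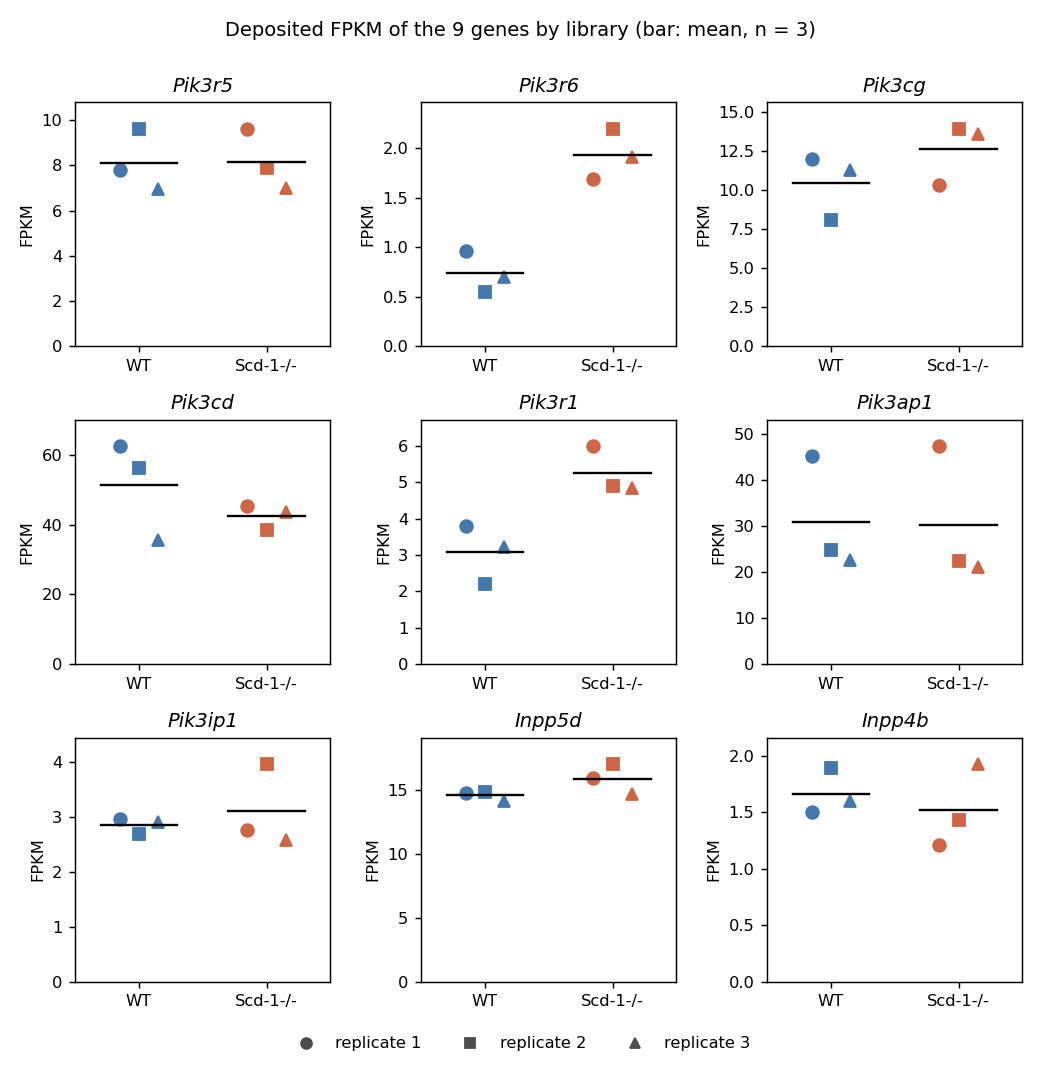
Deposited FPKM of the 9 genes in each library (y axis, linear from 0), by genotype (x axis), with marker shapes for the replicate number and a bar for the mean of 3 libraries. Pik3r6 and Pik3r1 are higher in every Scd-1-/- library than in any WT library, the other 7 genes overlap, and Pik3ap1 separates replicate 1 from the others in both genotypes.

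Class IB subunits were unequal in their differences between genotypes. Pik3r6 had an FPKM of 0.965, 0.553 and 0.702 in the WT libraries and of 1.70, 2.20 and 1.92 in the Scd-1-/- libraries. Every Scd-1-/- library lay above every WT library, as for 7.67% of all genes tested. The means were 0.740 ± 0.209 and 1.94 ± 0.254 (SD, n = 3), a log2 fold change of 1.40 (SE 0.289, 95% interval 0.73 to 2.07) or 2.64-fold. Its adjusted p was 0.133 without the block and 0.033 with it, in edgeR. The difference was seen in each same-numbered pair, at 0.81, 1.99 and 1.45 on the log2 FPKM scale for replicates 1, 2 and 3. These values rest on 35 to 66 counts per WT library and 119 to 140 counts per Scd-1-/- library. Among fits that left out 1 library, log2 fold changes ran from 1.23 to 1.66, and only the fit without WT replicate 1 passed the thresholds (adjusted p = 0.0453). In that fit 143 of all 9627 genes passed the thresholds of the study and 133 had an adjusted p under 0.05. The unblocked fit of all 6 libraries had 71 and 11. Pik3r6 was named by the study from these same libraries, so its place in the set is not independent of its difference. The natural killer marker Klrb1c, with 37, 55 and 65 counts in WT and 126, 645 and 602 in Scd-1-/- libraries, was also lowest in replicate 1 of the Scd-1-/- group. In WT, replicate 1 was the lowest library for Klrb1c but the highest for Pik3r6. The parts of the 5 markers whose groups did not overlap either (Klrb1c and Cd14 higher, Cd8a, Cd4 and Cd79b lower in Scd-1-/- libraries) in the differences of Pik3r6 and Pik3r1 were not tested.

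Pik3r5, whose product p101 binds p110γ in place of p84, had an FPKM of 7.77, 9.59 and 6.96 in WT and of 9.63, 7.89 and 6.98 in Scd-1-/- libraries. The groups overlapped over nearly their whole range, with means of 8.11 ± 1.35 and 8.16 ± 1.34 (SD, n = 3). The log2 fold change was 0.03 with a 95% interval of -0.41 to 0.48, and its sign changed with the libraries used. Pik3r5 and Pik3r6 are neighbours on chromosome 11 (GRCm38, plus strand): Pik3r5 lies at 68432121 to 68497849 and Pik3r6 at 68503019 to 68552698, so that 5169 bases separate them. Their log2 CPM had a Pearson correlation of -0.08 over the 6 libraries, which share depth and culture, and this is given as a description.

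Pik3cg (chromosome 12, 32173473 to 32208659, minus strand), the catalytic subunit that both regulators bind, had an FPKM of 12.0, 8.09 and 11.3 in WT and of 10.3, 13.9 and 13.6 in Scd-1-/- libraries. The Scd-1-/- libraries of replicates 2 and 3 were the highest of the 6, while that of replicate 1 lay within the WT range. Means of 10.4 ± 2.07 and 12.6 ± 2.00 (SD, n = 3) gave a log2 fold change of 0.29 (95% interval -0.16 to 0.75, adjusted p = 0.682; 0.360 with the block). In replicates 2 and 3 alone the log2 fold change was 0.55, with an adjusted p of 0.0491, in a fit where 12.6% of all genes reached an adjusted p under 0.05.

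Because p101 and p84 bind the same catalytic subunit, the ratio of their transcripts was computed within each library, where it does not depend on library scaling. The Pik3r6 to Pik3r5 ratio of FPKM was 0.124, 0.0577 and 0.101 in WT and 0.176, 0.279 and 0.274 in Scd-1-/- libraries. All Scd-1-/- libraries were above all WT libraries, by 1.41 on the log2 scale or 2.65-fold. A two-sided exact permutation test gave p = 0.1, the smallest that 3 libraries against 3 allow. Pik3r6 over Pik3cg was 0.0806, 0.0684 and 0.0624 in WT and 0.164, 0.158 and 0.141 in Scd-1-/- libraries, 2.20-fold higher, whereas Pik3r5 over Pik3cg was 0.649, 1.19 and 0.618 in WT and 0.934, 0.566 and 0.513 in Scd-1-/- libraries, with overlapping groups. Pik3r5 was the more abundant regulatory transcript per length in each of the 6 libraries. The ratios to Pik3cg and to Pik3cd were chosen after the values were seen and were not tested.

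**Figure D2:**
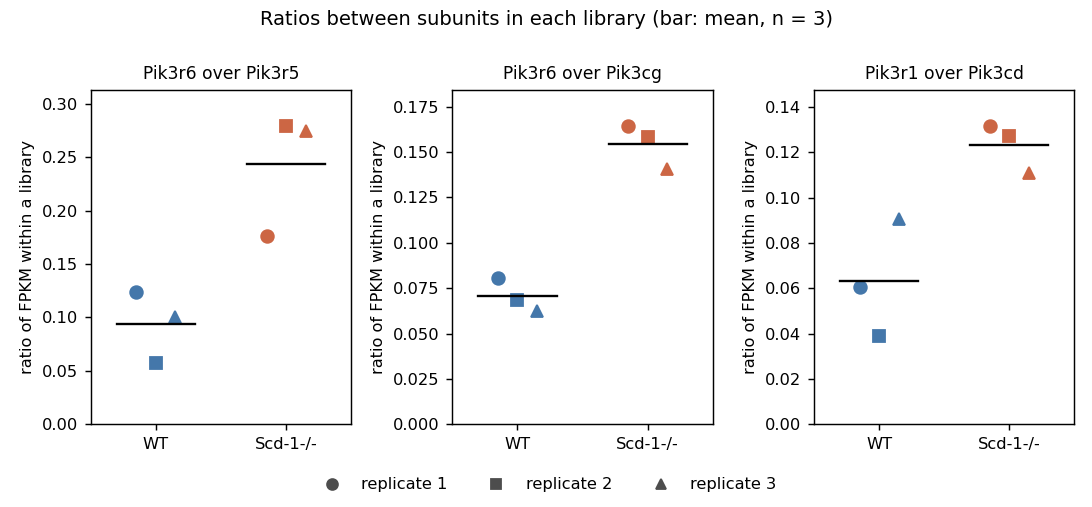
Ratios of FPKM between subunits within each library (y axis, linear from 0), by genotype (x axis), with marker shapes for the replicate number and a bar for the mean of 3 libraries. Shown are the 3 of the 6 computed ratios in which the groups do not overlap, each higher in Scd-1-/- libraries, from 0.176 to 0.279 against 0.0577 to 0.124 for Pik3r6 over Pik3r5.

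Of the class IA genes in the set, the regulatory Pik3r1 was higher in Scd-1-/- cells, and the catalytic Pik3cd did not pass the test. Pik3r1 was past the adjusted threshold with the block and in replicates 2 and 3 alone but not in the unblocked fit. Another class IA regulatory subunit outside the set, Pik3r2, had a lower mean in Scd-1-/- libraries (5.49 against 7.34 FPKM), with overlapping groups (log2 fold change -0.39, adjusted p = 0.619 in the unblocked edgeR fit). Pik3r1 had an FPKM of 3.79, 2.20 and 3.23 in WT and of 6.00, 4.89 and 4.85 in Scd-1-/- libraries, so the groups did not overlap. Means were 3.08 ± 0.807 and 5.25 ± 0.653 (SD, n = 3), a log2 fold change of 0.79 (SE 0.226, 95% interval 0.27 to 1.32) or 1.73-fold. The adjusted p was 0.277 without the block and 0.0216 with it, where the log2 fold change was 0.82 (95% interval 0.50 to 1.14). Same-numbered pairs differed by 0.66, 1.15 and 0.59 on the log2 FPKM scale. With 411 to 1242 counts per library, Pik3r1 was measured more deeply than Pik3r6. DESeq2 gave an adjusted p of 0.0526, and the fits that left out 1 library gave log2 fold changes of 0.60 to 0.99 with adjusted p of 0.0842 to 0.770.

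Pik3r1 (chromosome 13, 101680563 to 101768217, minus strand, GRCm38) has start sites far apart that give transcripts for regulatory proteins of different length, and the deposited counts pool them. RefSeq places start sites at 101768217 and 101692630, which are 75587 bases apart. The 250 bases before each are shown, 5′ to 3′ on the minus strand of GRCm38.p6, because a count per gene cannot say which start the higher Pik3r1 level came from. The capitals mark the only match to the motifs searched, 10 bases before the upstream start, to the KLF-type motif CCCCACCC on the opposite strand.
Pik3r1 upstream start, chr13:101768218-101768467: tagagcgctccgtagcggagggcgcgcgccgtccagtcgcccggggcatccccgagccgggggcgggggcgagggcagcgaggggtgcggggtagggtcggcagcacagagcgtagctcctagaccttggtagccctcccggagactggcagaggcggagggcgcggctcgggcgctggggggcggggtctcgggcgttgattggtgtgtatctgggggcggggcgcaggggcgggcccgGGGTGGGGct
Pik3r1 downstream start, chr13:101692631-101692880: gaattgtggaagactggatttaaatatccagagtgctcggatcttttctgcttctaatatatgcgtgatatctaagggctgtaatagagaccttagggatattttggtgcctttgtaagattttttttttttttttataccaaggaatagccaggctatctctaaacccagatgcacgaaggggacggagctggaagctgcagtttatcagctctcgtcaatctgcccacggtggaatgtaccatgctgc
The upstream window is 76.4% G and C and the downstream window 42.4%. Over the 12 RefSeq promoter windows of 8 of the 9 genes, from 250 bases before to 50 after each start, motifs were searched on both strands. The FOXO-type motif GTAAACA was found in 1 window, of Pik3cg, 92 bases before a start, against 3.65% of all 32817 windows. The KLF-type motif was found before a start of Pik3r1, Pik3cd and Inpp4b, against 9.99% of all windows. The ETS-type CCGGAAG (8.86% of all windows) and the AP-1-type TGANTCA (7.81%) were in none of the 12. Pik3r6 had no entry in the table. A match is a description of letters and not of a bound site.

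Pik3cd, encoding p110δ (chromosome 4, 149649168 to 149702571, minus strand), had an FPKM of 62.6, 56.2 and 35.7 in WT and of 45.5, 38.5 and 43.7 in Scd-1-/- libraries. The WT libraries were spread over the whole range, with replicate 3 the lowest of the 6, and the Scd-1-/- libraries lay between. Means of 51.5 ± 14.1 and 42.6 ± 3.67 (SD, n = 3) gave a log2 fold change of -0.26 (95% interval -0.77 to 0.25, adjusted p = 0.783). Pik3r1 over Pik3cd was 0.0606, 0.0392 and 0.0905 in WT and 0.132, 0.127 and 0.111 in Scd-1-/- libraries, 2.05-fold higher, with no overlap between groups. The groups overlapped in the other ratios to Pik3cd computed: Pik3cg over Pik3cd was 0.191, 0.144 and 0.315 in WT and 0.226, 0.362 and 0.311 in Scd-1-/- libraries, and Inpp5d over Pik3cd was 0.236, 0.264 and 0.397 in WT and 0.350, 0.444 and 0.337 in Scd-1-/- libraries.

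**Figure D3:**
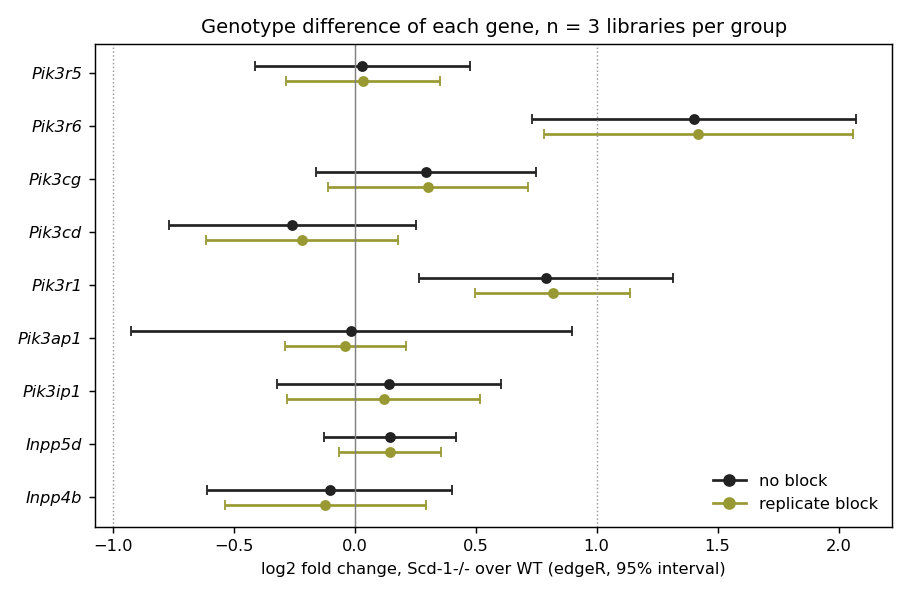
Log2 fold change of each gene, Scd-1-/- over WT (x axis, with the 95% interval), from edgeR without (black) and with (olive) the replicate block, for 3 libraries per group. Dotted lines mark a log2 fold change of 1 in size. The intervals of Pik3r6 (0.73 to 2.07 without the block) and Pik3r1 (0.27 to 1.32) exclude 0, those of the other 7 genes include it, and the block narrows the interval of Pik3ap1 most, from -0.92 to 0.90 down to -0.29 to 0.21.

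The adaptor Pik3ap1 varied with the replicate number, and its genotype means were close. Its FPKM was 45.2, 24.8 and 22.6 in WT and 47.3, 22.4 and 21.0 in Scd-1-/- libraries. Both libraries of replicate 1 were above the other 4, as for 21.6% of all genes tested, with a mean of 46.2 against 22.7. The group means were 30.9 ± 12.5 and 30.2 ± 14.8 (SD, n = 3). The log2 fold change was -0.01 (SE 0.392) without the block and -0.04 (SE 0.109, 95% interval -0.29 to 0.21) with it. The macrophage marker Cd68 had the same pattern, at 16.7 to 27.2 FPKM in replicate 1 and 7.79 to 9.57 FPKM in the other 4 libraries. Itgam, another myeloid marker, which the files hold in 2 rows, was also highest in replicate 1, with summed counts of 56, 9 and 16 in WT and 83, 26 and 37 in Scd-1-/- libraries. Of the remaining myeloid markers, Adgre1 and Fcgr1 were at 0, Lyz2 and S100a8 had at most 2 and Csf1r and Cebpa at most 4 counts in any library, and Cd14 had 4 to 42 counts and followed genotype. The part of such cells in the Pik3ap1 level was not tested. Pik3ap1 lies on chromosome 19 (41272377 to 41385102, minus strand), 3.01 Mb from Scd1, where donor-strain DNA linked to the mutated allele and the loss of Scd1 itself cannot be told apart.

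The inhibitor Pik3ip1 (chromosome 11, 3330401 to 3342971, plus strand) was low and overlapped between groups, with an FPKM of 2.97, 2.70 and 2.92 in WT and of 2.77, 3.98 and 2.59 in Scd-1-/- libraries. Scd-1-/- replicate 2 was the highest and replicate 3 the lowest of the 6. The log2 fold change was 0.14 (95% interval -0.32 to 0.60, adjusted p = 0.884), and it became -0.07 without Scd-1-/- replicate 2. Of its annotated exons, 2.13% overlap an antisense gene, Gm12592, that had 0 to 8 counts per library.

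Neither lipid phosphatase passed the test. Inpp5d (chromosome 1, 87620312 to 87720507, plus strand) had an FPKM of 14.8, 14.8 and 14.2 in WT and of 15.9, 17.1 and 14.7 in Scd-1-/- libraries. Its groups overlapped through Scd-1-/- replicate 3, and its log2 fold change of 0.15 (95% interval -0.13 to 0.42, adjusted p = 0.757) had the narrowest interval of the 9 genes without the block. Inpp4b (chromosome 8, 81342556 to 82127914, plus strand) had an FPKM of 1.50, 1.90 and 1.60 in WT and of 1.21, 1.43 and 1.93 in Scd-1-/- libraries. Both groups spanned much the same range, with a log2 fold change of -0.10 (95% interval -0.61 to 0.40, adjusted p = 0.929).

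Over the 9 genes, 6 log2 fold changes were above and 3 below 0, with a median of 0.14, against a median of -0.00051 over all genes tested. The median size of the change was 0.15, against 0.18 over all genes. Of the 9, 2 had groups that did not overlap, both higher in Scd-1-/- libraries, against 16.0% of all genes in either direction.

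Levels of different genes were compared per length. Counts divided by FPKM gave the length behind each deposited value, which ranged from 0.469 (Pik3ap1) to 2.07 (Pik3ip1) times the annotated exon length of the gene. Levels were therefore also computed per kilobase of annotated exons. On both scales Pik3cd was highest over the 6 libraries, at a mean of 47.0 FPKM as deposited and 94.6 per kilobase of annotated exons. Pik3ap1 was second on the deposited scale (30.6 FPKM) but below Inpp5d per annotated length (14.3), where that gene stood at 24.9 and its 6 libraries were all above those of Pik3ap1. In WT libraries, Pik3ap1, Pik3cg and Pik3r5 overlapped per annotated length (10.6 to 21.2, 9.14 to 13.5 and 8.79 to 12.1), so their order was within the spread. Pik3r6 was the lowest of the 9 in WT on both scales, at 0.921 ± 0.260 (SD, n = 3) per annotated length, below the 1.84 ± 0.229 of Inpp4b. In Scd-1-/- libraries Pik3r6 had the higher mean of the pair, 2.41 ± 0.316 against 1.69 ± 0.407, and their ranges overlapped. Pik3r1 and Pik3ip1 changed order with the length used, since Pik3r1 had the higher mean of the 2 on the deposited scale in both genotypes but, per annotated length, was below Pik3ip1 in WT (4.06 ± 1.06 against 5.92 ± 0.295) and overlapped it in Scd-1-/- libraries (6.92 ± 0.861 against 6.44 ± 1.56).

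**Figure D4:**
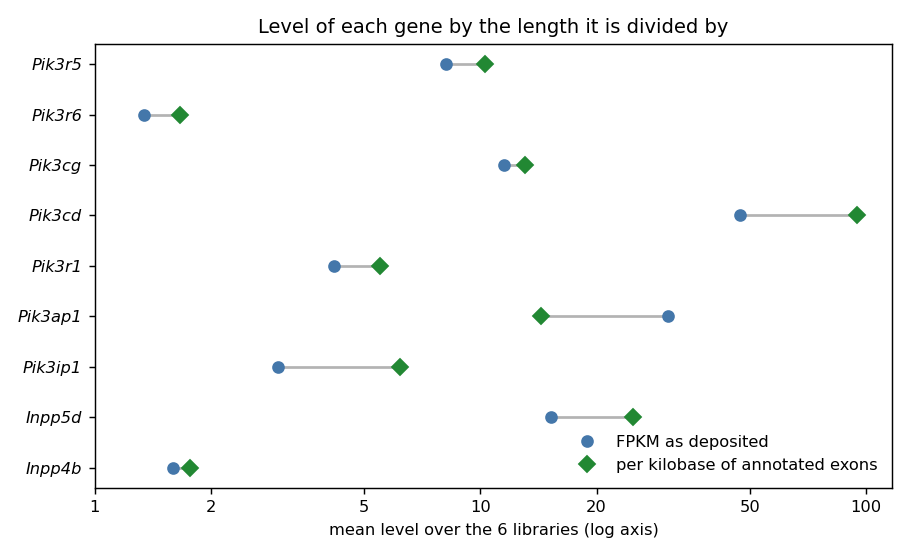
Mean level of each gene over the 6 libraries (x axis, log scale) as deposited FPKM (circles) and per kilobase of annotated exons (diamonds), joined by a line. Pik3cd is highest on both scales, at 47.0 and 94.6, whereas Pik3ap1 moves down from 30.6 to 14.3.

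The other genes of the pathway were taken from 8 lists by role, with 64 genes in all, of which 56 passed the FPKM minimum. In the unblocked edgeR fit 1 of the 56 passed the thresholds of the study and 0 had an adjusted p under 0.05, while 8 had an unadjusted p under 0.05, against 0.738%, 0.114% and 10.1% of all genes tested. When replicate 2 or replicate 3 of either genotype was left out, 0 genes of the lists passed the thresholds of the study. The block raised these to 2 genes past the thresholds and 4 at that adjusted p, against 1.91% and 4.7% of all genes, the same numbers of list genes as DESeq2 without it. The median log2 fold change was -0.03, with 25 genes above and 31 below 0, and the groups of 12 genes did not overlap, 6 in each direction, where 16.0% of all genes tested did not overlap. Of the remaining PI3K subunits, Pik3ca (p110α) was at 2.15 ± 0.265 FPKM in WT and 2.23 ± 0.357 in Scd-1-/- libraries, and Pik3r2 (p85β) at 7.34 ± 0.693 and 5.49 ± 1.56 (log2 fold change -0.39, adjusted p = 0.619). Pik3cb (p110β) was under the minimum, at 0.399 and 0.517 FPKM, as was Pik3r3. Pik3c3 and Pik3r4, the class III enzyme and its partner, had log2 fold changes of 0.06 and -0.17.

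Of the phosphatases that act on PIP3 or AKT, 0 of the 6 tested passed either threshold, with or without the block, and 1 had an unadjusted p under 0.05 without it. Phlpp1, an AKT phosphatase, was at 1.56 ± 0.497 and 1.01 ± 0.297 FPKM, a log2 fold change of -0.61 (adjusted p = 0.601).

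Upstream, 1 of 13 receptor and adaptor genes passed the adjusted threshold with the block, and 0 without it. This was Dok2, an adaptor that restrains T cell receptor signalling, with an FPKM of 47.5, 49.3 and 40.8 in WT and of 61.8, 63.7 and 62.0 in Scd-1-/- libraries (log2 fold change 0.47, adjusted p = 0.262 without and 0.0426 with the block). Among 10 PIP3-binding kinases and effectors, Rasa3, a GTPase-activating protein that binds phosphoinositides, was called with the block and not without it. It had an FPKM of 17.3, 12.8 and 18.5 in WT and of 29.2, 27.1 and 24.4 in Scd-1-/- libraries (log2 fold change 0.75, adjusted p = 0.168 without and 0.0235 with the block). Both genes were higher in each Scd-1-/- library than in any WT library, as were 7.67% of all genes tested. This held for 4 of the 13 receptor and adaptor genes and 1 of the 10 PIP3-binding genes.

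In the mTOR and TSC list, 3 of 12 genes were above and 9 below 0, with a median log2 fold change of -0.16, and 0 passed either threshold in either edgeR fit or had an unadjusted p under 0.05 without the block. Ddit4, an inhibitor of mTORC1, had the largest difference of these, with an FPKM of 138.4, 308.4 and 299.6 in WT and of 173.8, 157.4 and 154.5 in Scd-1-/- libraries. WT replicate 1 was the lowest of the 6, and the groups overlapped through it (log2 fold change -0.59, adjusted p = 0.532). Rictor, a subunit of mTORC2, had a log2 fold change of -0.46 (adjusted p = 0.790).

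FOXO1 is kept out of the nucleus by AKT, and Ccr7, Klf2, S1pr1 and Il7r are among its known targets in T cells. In this list 9 of 11 genes were below 0, with a median log2 fold change of -0.21, and 4 had no overlap between groups, each lower in Scd-1-/- libraries, as were 8.32% of all genes tested. Ccr7, the receptor for lymph node chemokines, had an FPKM of 55.9, 207.5 and 204.3 in WT and of 35.8, 51.9 and 51.8 in Scd-1-/- libraries. Replicate 1 was the lowest library in each genotype, and Ccr7 passed both thresholds in edgeR with the block and neither without it (log2 fold change -1.53, adjusted p = 0.019, against -1.71 and 0.240 without). Ccr7 was named by the study from these libraries, so its direction is not independent evidence. Il7r, at 14.3 ± 1.42 and 14.2 ± 0.662 FPKM (log2 fold change 0.02, 95% interval -0.32 to 0.36), and Klf2, at 0.30 (95% interval -1.30 to 1.89) without the block and 0.57 (0.10 to 1.04, adjusted p = 0.151) with it, had log2 fold changes above 0 and were picked for this after their values were seen.

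**Figure D5:**
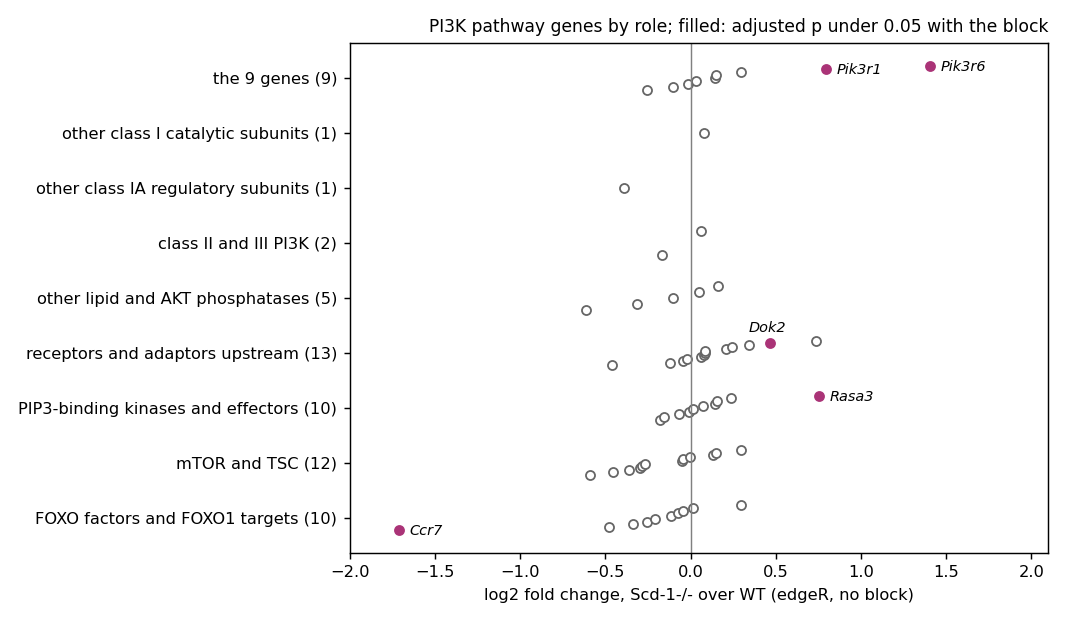
Log2 fold change, Scd-1-/- over WT, from edgeR without the block (x axis) for the 9 genes and the genes of the role lists reported here (rows, number plotted in brackets). Filled points had an adjusted p under 0.05 with the replicate block: Pik3r6, Pik3r1, Dok2 and Rasa3 above 0, Ccr7 below 0.

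The genes most like Pik3r6 and Pik3r1, the pair with the smallest p among the 9, were found by the Pearson correlation of log2 CPM over the 6 libraries. For Pik3r6 these were C1qtnf6 (r = 0.999), Cd244 (r = 0.997), which encodes a receptor of natural killer and CD8+ T cells, and Il18r1 (r = 0.997), a chain of the IL-18 receptor. Il18r1 had an FPKM of 4.94, 3.18 and 3.89 in WT and of 9.30, 11.8 and 11.3 in Scd-1-/- libraries, with replicate 1 the highest WT and the lowest Scd-1-/- library, as in Pik3r6. For Pik3r1 they were Sec24a (r = 0.998), a subunit of the COPII coat, Tmem2 (r = 0.995) and Pdcd2l (r = 0.994). Among all genes tested, 307 reached r = 0.9 or more with Pik3r6 and 280 with Pik3r1, and the libraries share depth and culture, so these names describe a pattern across 6 points. Pik3r6 and Pik3r1 themselves had r = 0.92, and they differed in replicate 1, which was the highest Scd-1-/- library for Pik3r1 and the lowest for Pik3r6.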

How the data were processed

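RNA-seq of 3 WT and 3 Scd-1-/- Teff libraries was used. Per the labels and methods, the authors aligned reads with HISAT2 to GRCm38, quantified them with StringTie 1.3.0, and deposited a count and an FPKM per gene. The counts were whole numbers, not normalized. The methods name a stranded total RNA kit, the labels a poly(A) kit. How reads shared between genes were counted is not given in the sources used here. Counts were tested with edgeR 4.0.16 (R 4.3.3, quasi-likelihood, TMM scaling, genotype only, Benjamini-Hochberg over the 9627 genes whose mean FPKM reached 1). The test was also run on simulated counts, with means and spread taken from these data. The main alternatives were a replicate block, DESeq2 1.42.0, limma 3.58.1 on log2(FPKM + 1), other scalings and filters, and leaving out libraries. Deviations of same-numbered libraries from their group means correlated across genes (r of 0.595, 0.306 and 0.470 for replicates 1, 2 and 3), so the numbers were taken to pair the libraries, although WT replicate 3 with Scd-1-/- replicate 2 had r of 0.380 and WT replicate 2 with Scd-1-/- replicate 3 had 0.180, so replicates 2 and 3 were not clearly separated. What a number stands for is not given in the sources used here. Depth was 14034479 to 15866216 counts, and a count of 0 allows up to 3 counts, for counting error only.

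The 9 genes and all lists were chosen with earlier results of these data known. The genes named are the 9, Scd1, in each role list those called in either fit or otherwise the 2 with the largest change, markers, and the 3 genes most like the 2 of the 9 with the smallest p. Pik3r3, Pik3cb, Il7r and Klf2 were named outside this rule. Some genes of the lists enter the counts over lists but are not reported here. Positions are from GENCODE M21 and promoter sequences from RefSeq (GRCm38.p6, 8 of 9 genes matched).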

Additional observations from a re-analysis of the deposited data

How the results depend on the processing

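Fits that each left out 1 library placed 0 to 1 of the 9 genes past the thresholds of the study and 0 to 1 at an adjusted p under 0.05, and 0 to 1 and 0 to 2 genes of the role lists. Of the 9 genes, 1 (Pik3r6) was past the thresholds with no FPKM minimum, DESeq2, quantile normalization, the replicate block, or replicates 2 and 3 alone, against 0 in the unblocked edgeR fit. At an adjusted p under 0.05 stood 1 of the 9 with DESeq2, 2 with the replicate block and 3 (Pik3r6, Pik3r1 and Pik3cg) in replicates 2 and 3 alone, against 0. Of the role lists, 2 genes were past the thresholds with DESeq2, the block, or replicates 2 and 3 alone, against 1, and 1 had an adjusted p under 0.05 with no minimum, 4 with DESeq2, 4 with the block and 11 in replicates 2 and 3 alone, against 0. Over all genes, 71 of 9627 passed the thresholds in the unblocked fit, 148 of 17192 with no minimum and 43 of 5815 with a minimum of 5. Of the 9627, 161 passed with DESeq2, 184 with the block, 64 with quantile normalization and 369 in replicates 2 and 3 alone. The corresponding counts at an adjusted p under 0.05 were, in this order, 11, 84, 18, 266, 452, 15 and 1213. Leaving out 1 library moved the 71 to between 25 (without WT replicate 2 or 3) and 163 (without Scd-1-/- replicate 1), and the lowest and highest counts for the 11 were 2, when Scd-1-/- replicate 3 was left out, and 182, when Scd-1-/- replicate 1 was. The cause of these shifts was not tested.

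The log2 fold change of Pik3r5 reversed in replicates 2 and 3 alone (-0.12), and over fits without 1 library it ran from -0.11 to 0.17. The same fits gave -0.50 to 0.39 for Pik3ap1, -0.073 to 0.26 for Pik3ip1 and -0.31 to 0.036 for Inpp4b. Pik3r6, Pik3r1, Pik3cg, Pik3cd and Inpp5d kept their direction in every fit that gave a value, although without 1 library Pik3cd ran from -0.48 (without WT replicate 3, unadjusted p = 0.0169) to -0.08 (without WT replicate 1) and Pik3cg from 0.14 (without WT replicate 2) to 0.42 (without WT replicate 1). A minimum of 5 FPKM left out Pik3r6, Pik3r1, Pik3ip1 and Inpp4b. The difference in the log2 Pik3r6 to Pik3r5 ratio was 1.09 to 1.64 without 1 library and 1.86 in replicates 2 and 3 alone. With the libraries paired by replicate number, an exact permutation test that flipped the signs of the paired differences gave p = 0.25, the smallest that 3 pairs allow. The block changed no other call of the 9 genes. Pik3r6, at 35 to 140 counts, is the gene whose precision depth limits most.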
